A study of Homo sapiens with 6 samples.

Results

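The 37 genes described here encode the protein-folding machinery of the endoplasmic reticulum (ER), the sensors and transcription factors of the unfolded protein response (UPR), and the factors of ER-associated degradation (ERAD). They were taken by gene symbol, not by a cut on a measured value, but with earlier results of these data known. All 37 were among the 20289 genes of the count table. The libraries came from Huh7, a human hepatocellular carcinoma line. There were 3 libraries of Huh7 cells with a knockout of UBE2S (UBE2S-KO) and 3 of wild-type Huh7 cells (WT), all of poly(A) RNA. UBE2S is a ubiquitin-conjugating enzyme that extends ubiquitin chains for the anaphase-promoting complex, and the series was made to find genes that act downstream of it. How the knockout was made, whether it is 1 clone or a pool and whether the replicates were separate cultures is not stated in the labels. The p-values therefore measure the spread between these libraries, which may be technical. The labels name no ER stressor for either group.

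As background, newly made secretory and membrane proteins fold in the ER with the help of HSPA5 (also called BiP), an HSP70 chaperone, and its J-domain partners, of lectin chaperones that hold glycoproteins, and of disulfide isomerases. When unfolded proteins accumulate, the sensors ERN1 (IRE1), EIF2AK3 (PERK) and ATF6 signal to the nucleus. ERN1 splices the mRNA of XBP1, ATF6 is cut to release a transcription factor, and EIF2AK3 slows translation and favours ATF4. XBP1 and ATF6 act on the genes of chaperones and of ERAD, which sends misfolded proteins back to the cytosol for ubiquitination and destruction. Hepatocytes secrete much of the plasma proteome and rely heavily on this machinery.

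Library totals were 21840499 to 25840104 estimated counts in UBE2S-KO and 23300336 to 27910396 in WT. UBE2S itself was at 47.6, 45.4 and 44.2 CPM (counts scaled to a common library size) in the UBE2S-KO libraries and 234.1, 220.0 and 216.4 CPM in the WT libraries, a difference of -2.29 in log2 units with an SE of 0.04 (edgeR adjusted p = 1.6e-12). WT replicate 1 stood apart: a chi-square statistic of its counts, divided by the degrees of freedom, was 8.46 and 11.0 against the other WT libraries. The same statistic was 1.39 to 1.54 between UBE2S-KO libraries and 1.79 between WT replicates 2 and 3. Over 10 hepatocyte and hepatoma markers, AFP and ALB among them, the sums were 27977 to 28525 CPM in UBE2S-KO and 30554 to 31257 CPM in WT, with 6 lower, including TTR (log2 fold change -0.57), and 3 higher, including FGB (0.67). CD3E and KDR, which mark T cells and endothelium, had 0 counts in all 6. Summed over 6 fibroblast markers, levels were 20.8 to 21.97 CPM in UBE2S-KO and 141.1 to 157.6 CPM in WT. COL1A2 made up most of the WT sum; of the 5 tested fibroblast markers 2 were lower and 3 higher. Over 6 immune markers the sums were 179.2 to 182.1 CPM in UBE2S-KO and 289.8 to 313.2 CPM in WT, most of it LYZ, and all 3 tested ones were lower. Over 5 endothelial markers they were 2.27 to 2.52 CPM in UBE2S-KO and 5.51 to 6.82 CPM in WT, with 1 tested and lower, and over 4 cholangiocyte markers 276.7 to 282.8 CPM in UBE2S-KO and 327.0 to 354.4 CPM in WT, with 2 of 3 tested lower. The part of these genes in the results below was not tested.

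Of the 37 genes, 36 had enough counts to be tested. The other was DERL3, a derlin, with 0 counts in all 6 libraries, which allows a level of up to 0.137 CPM in the shallowest one (3 counts, for counting error alone). In UBE2S-KO, 25 of the 36 genes (69.4%) were lower and 3 (8.33%) were higher than in WT (edgeR quasi-likelihood test, adjusted p under 0.05 over all 13265 tested genes). Calls were common throughout these data: 60.1% of all tested genes passed, 30.7% lower and 29.4% higher. The median log2 fold change of the 36 genes was -0.20, against -0.00057 over all tested genes. Most of the differences were small. Only 9 of the 36 genes were lower with a log2 fold change of -0.3 or less (25%, against 18.2% of all tested genes). The 3 UBE2S-KO values lay wholly below the 3 WT values at 25 of the genes, as they did at 33.5% of all tested genes. Summed over the 37 genes, levels were 9923 to 10022 CPM in UBE2S-KO and 10914 to 11044 CPM in WT. In bulk libraries such as these, fewer cells with a transcript and less of it per cell cannot be told apart. Without WT replicate 1, 25 genes were lower and 5 higher, where 63.4% of all tested genes were called and 32.5% were lower: SYVN1 lost its call, and CANX (-0.05) was then called lower and ATF6 (0.10) and CREB3L2 (0.09) higher.

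**Figure D1:**
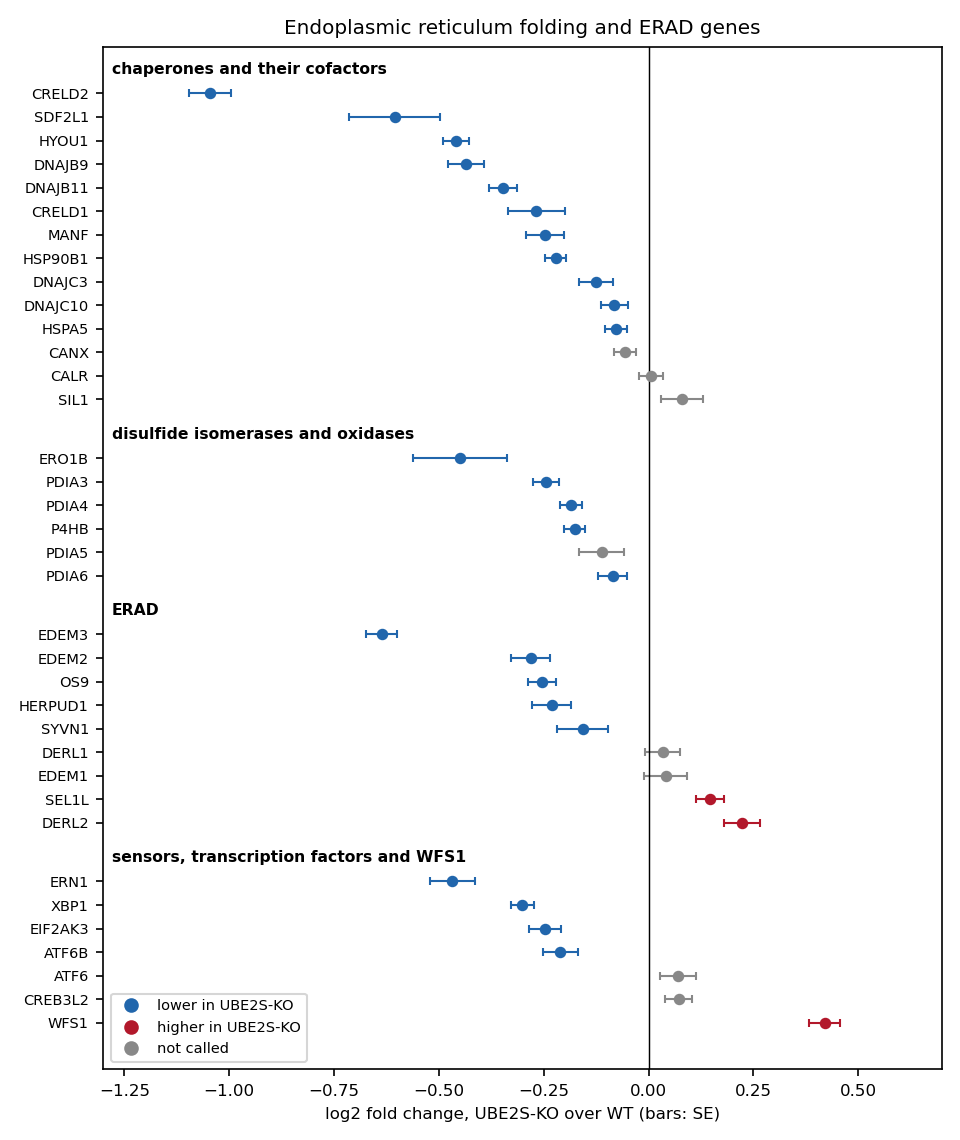
Log2 fold change, UBE2S-KO over WT, with its standard error (bars) for the 36 tested genes, grouped by role, from 3 UBE2S-KO and 3 WT libraries. Blue and red mark genes called lower and higher in UBE2S-KO and grey those not called; 25 points are blue, CRELD2 at -1.05 lies farthest left, and WFS1 at 0.42 farthest right.

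The promoters of this gene group are known for the sequence elements through which ATF6 and XBP1 act, and a few are shown so that they can be read beside the changes. RefSeq promoter windows (GRCh38.p14, 250 bases before to 50 after a transcription start) were matched for 34 of the 37 genes, without DERL1, DERL3 and PDIA3. The ER stress response element ERSE (CCAAT, then any 9 bases, then CCACG, on either strand) was found in windows of 8 of the 34 genes, and in 25 of all 27305 genes with a window (0.0916%). The related ERSE-II (ATTGG, then any 1 base, then CCACG) was found in HERPUD1, HYOU1 and SDF2L1, and in 0.0696% of all genes. The core of the UPR element, TGACGTGG, was found in HYOU1, where it overlaps an ERSE-II, and in DNAJC10, and in 0.927% of all genes. In all, 12 of the 34 genes held at least 1 of the 3 elements. Of these 12, 10 were lower in UBE2S-KO and 2 (CALR and CANX) were not called, with a median log2 fold change of -0.23. Of the 22 tested genes whose windows held none, 14 were lower, 3 higher and 5 not called, with a median of -0.18. Of all tested genes, 30.7% were lower. The difference between genes with and without an element was not tested. Some changes were shared with nearby genes on the chromosome, as described further below. With the median log2 fold change of those neighbours taken off, HSPA5, DNAJC10, ERO1B and XBP1, with an element, lost their call. So did DNAJC3 and ATF6B, without one. CALR and CANX, with an element, and EDEM1 and CREB3L2, without one, were then called lower. ATF6, without one, was then called higher. DNAJC10, HSPA5 and PDIA6, with an element, and DNAJC3 and SYVN1, without one, lost their call in 6 to 12 of 17 alternative settings. A match is a description of the letters and does not show that a factor was bound. The stretches below lie before the RefSeq start (for XBP1, 1 of its 2 listed starts), read 5′ to 3′ on the gene's strand, with the matched bases of the elements in capitals. They are from the 3 genes that fell most among those with an element (CRELD2, SDF2L1, HYOU1), from HSPA5 and XBP1, and from CALR, whose level did not differ by a called amount.
CRELD2 (chr22:49918529-49918597, plus strand): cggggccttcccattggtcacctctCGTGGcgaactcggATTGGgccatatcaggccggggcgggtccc
SDF2L1 (chr22:21642089-21642149, plus strand): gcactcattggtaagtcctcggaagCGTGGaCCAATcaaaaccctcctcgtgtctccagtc
HYOU1 (chr11:119057249-119057418, minus strand): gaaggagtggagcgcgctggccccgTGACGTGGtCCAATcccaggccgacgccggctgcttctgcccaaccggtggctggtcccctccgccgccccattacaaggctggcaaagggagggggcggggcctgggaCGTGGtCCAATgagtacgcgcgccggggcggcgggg
HSPA5 (chr9:125241366-125241434, minus strand): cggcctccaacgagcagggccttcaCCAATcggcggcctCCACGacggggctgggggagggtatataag
XBP1 (chr22:28800578-28800646, minus strand): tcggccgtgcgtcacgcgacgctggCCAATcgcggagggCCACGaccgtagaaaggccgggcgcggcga
CALR (chr19:12938359-12938427, plus strand): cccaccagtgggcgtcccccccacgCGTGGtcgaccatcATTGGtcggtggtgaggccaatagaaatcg

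Among the chaperones and their cofactors was the gene with the largest fall of the 36, CRELD2. It encodes an ER-resident protein that is induced by ER stress and interacts with disulfide isomerases. CRELD2 was at 20.4, 18.9 and 20.7 CPM in UBE2S-KO and 41.7, 41.3 and 40.9 CPM in WT. Every UBE2S-KO library thus lay near one level and every WT library near another, with a log2 fold change of -1.05 with an SE of 0.05 (edgeR adjusted p = 4.2e-09). CRELD2 (ENSG00000184164) lies on the plus strand of chromosome 22, from 49918167 to 49927540 (GRCh38, GENCODE release 29), and overlaps ALG12 on the other strand. ALG12, a mannosyltransferase that builds the oligosaccharide precursor of glycoproteins, was at 24.7 ± 0.426 CPM in UBE2S-KO and 44.2 ± 0.893 CPM in WT (SD, n = 3 each), a log2 fold change of -0.84 (SE 0.04). Whether the counting used strand is not given, so reads of the overlap cannot be told apart between them. SDF2L1, which works in a complex with DNAJB11, was at 18.4, 18.3 and 19.3 CPM in UBE2S-KO and 22.7, 33.0 and 29.8 CPM in WT. Its groups did not overlap, but WT replicate 1 was well below the other WT libraries. The log2 fold change was -0.61 with an SE of 0.11 (edgeR adjusted p = 0.00036), and -0.75 without that library.

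HYOU1, a large HSP70 relative that exchanges the nucleotide of HSPA5, was at 309.6, 314.6 and 320.6 CPM in UBE2S-KO and 447.2, 425.0 and 426.9 CPM in WT. The groups were far apart for their spread, with a log2 fold change of -0.46 with an SE of 0.03 (edgeR adjusted p = 6.6e-08). DNAJB9 (ERdj4) is a J-domain protein that also helps HSPA5 to hold ERN1 inactive. It was at 49.6, 50.1 and 48.7 CPM in UBE2S-KO and 63.6, 67.0 and 70.0 CPM in WT (log2 fold change -0.44, SE 0.04, edgeR adjusted p = 2.3e-06). DNAJB11 (ERdj3), a J-domain protein that binds substrates with HSPA5, was at 116.6, 118.6 and 117.5 CPM in UBE2S-KO and 153.9, 150.5 and 144.3 CPM in WT. It too was lower in every UBE2S-KO library (-0.35, SE 0.03, edgeR adjusted p = 1.6e-06). TBCCD1, which overlaps DNAJB11 on the other strand, had a log2 fold change of -0.61 (SE 0.06). CRELD1, the membrane-anchored relative of CRELD2 (log2 fold change -0.27, SE 0.07), MANF, a stress-induced HSPA5 partner (-0.25, SE 0.05), and HSP90B1 (GRP94), the HSP90 of the ER (-0.22, SE 0.03), were also lower.

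HSPA5, the chaperone at the centre of the system, differed by a small amount. It was at 1081, 1086 and 1095 CPM in UBE2S-KO and 1119, 1165 and 1157 CPM in WT. The groups did not overlap, yet the difference was 5.24% of the WT level (log2 fold change -0.08, SE 0.03, edgeR adjusted p = 0.025). The call held without WT replicate 1 (-0.10, edgeR adjusted p = 7e-06) and was lost when any one of the other 5 libraries was left out (edgeR adjusted p = 0.062 to 0.1). DNAJC3 (p58IPK; -0.12, SE 0.04) and DNAJC10, the J-domain reductase ERdj5 (-0.08, SE 0.03), were lower by similar small amounts, and DNAJC10 lost its call in 12 of 17 alternative settings. SIL1, another nucleotide exchange factor of HSPA5, was not called (0.08, 95% interval -0.03 to 0.19). Neither lectin chaperone was called. CALR was at 1430 ± 18.2 CPM in UBE2S-KO and 1425 ± 34.7 CPM in WT (log2 fold change 0.01, 95% interval -0.06 to 0.07), and CANX was at 1073 ± 10.8 CPM in UBE2S-KO and 1116 ± 8.24 CPM in WT (-0.06). Of the 14 chaperones and cofactors, 11 were lower, 0 were higher and 3 were not called, with a median log2 fold change of -0.23. Of all tested genes, 30.7% were lower and 29.4% higher.

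Read per length, the abundant genes given here kept the same order in both groups. As mean CPM per kilobase of exon, levels in UBE2S-KO were 751.5 for CALR, 586.1 for P4HB, 391.0 for HSP90B1, 278.2 for HSPA5 and 241.4 for CANX. The corresponding levels in WT were 748.6 for CALR, 662.2 for P4HB, 455.8 for HSP90B1, 293.6 for HSPA5 and 250.8 for CANX. The lowest tested gene was ERO1B, at 0.822 in UBE2S-KO and 1.12 in WT. Exon length here is the union over annotated transcripts and overstates the length of genes with long rare exons.

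Of the 6 enzymes of disulfide formation, 5 were called lower (30.7% of all tested genes were) and PDIA5 was not called (median log2 fold change -0.18). P4HB (PDI), the most abundant isomerase, was at 1527 ± 3.13 CPM in UBE2S-KO and 1725 ± 19.1 CPM in WT (SD, n = 3 each), a log2 fold change of -0.18 with an SE of 0.03 (edgeR adjusted p = 6.3e-05). PDIA3, which works on glycoproteins held by CALR and CANX, was at -0.24 (SE 0.03), and PDIA4 at -0.19 (SE 0.03). PDIA6, which also attenuates ERN1, was at -0.09 (SE 0.03, edgeR adjusted p = 0.047). Its groups overlapped, with 272.1, 280.9 and 276.6 CPM in UBE2S-KO and 279.0, 298.4 and 303.1 CPM in WT, and its call was lost in 10 of 17 alternative settings. PDIA5 was not called (-0.11, 95% interval -0.23 to 0.0046). ERO1B, an oxidase that recharges the isomerases, was at 3.73, 4.06 and 3.47 CPM in UBE2S-KO and 4.88, 5.32 and 5.17 CPM in WT. Its level was low and its groups apart, with a log2 fold change of -0.45 with an SE of 0.11 (edgeR adjusted p = 0.0039).

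**Figure D2:**
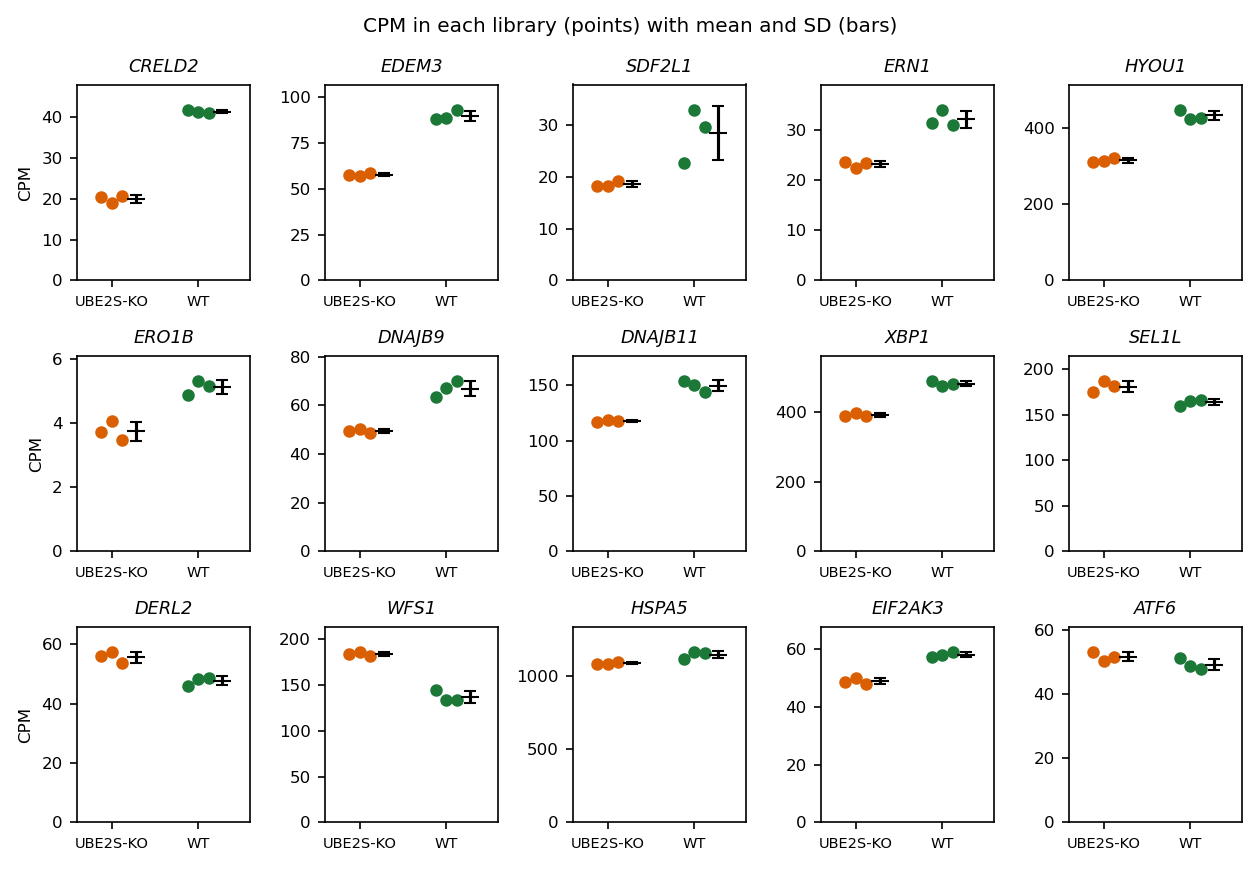
CPM of 15 genes in each of 3 UBE2S-KO libraries (orange, left) and 3 WT libraries (green, right), with the group mean and SD as bars; every axis starts at 0. The groups are apart in all panels but that of ATF6, and the SDF2L1 panel shows WT replicate 1 at 22.7 CPM below the other WT points.

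ERAD genes were called in both directions. EDEM3, a mannosidase that trims the glycans of misfolded proteins, was at 57.5, 57.0 and 58.9 CPM in UBE2S-KO and 87.9, 88.7 and 93.0 CPM in WT. That gap was many times the spread within either group (log2 fold change -0.64, SE 0.04, edgeR adjusted p = 2.1e-08). Its relative EDEM2 (-0.28, SE 0.05) and OS9 (-0.25, SE 0.03), a lectin that recognises trimmed glycans, were lower as well, and so was HERPUD1 (-0.23, SE 0.05), which organises the ligase complex. EDEM1 was not called, at 97.6 ± 3.27 CPM in UBE2S-KO and 94.9 ± 7.55 CPM in WT (SD, n = 3 each; log2 fold change 0.04, 95% interval -0.07 to 0.15).

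Among the parts of the membrane complex, directions differed. SYVN1 (HRD1), the ubiquitin ligase, was at -0.16 (SE 0.06, edgeR adjusted p = 0.042), with 37.2, 37.8 and 37.2 CPM in UBE2S-KO and 45.9, 41.1 and 38.1 CPM in WT. The highest WT value was that of WT replicate 1, and without this library the log2 fold change was -0.08 (edgeR adjusted p = 0.13). SEL1L, the adaptor that stabilises SYVN1, was at 174.8, 187.1 and 181.2 CPM in UBE2S-KO and 160.0, 164.9 and 166.0 CPM in WT. It rose without overlap of the groups (0.15, SE 0.03, edgeR adjusted p = 0.002). DERL2, a derlin of the retrotranslocation channel, was at 55.9, 57.3 and 53.6 CPM in UBE2S-KO and 46.0, 48.3 and 48.8 CPM in WT. It also rose (0.22, SE 0.04, edgeR adjusted p = 0.00063). MIS12, which overlaps DERL2 on the other strand, had a log2 fold change of 0.20 (SE 0.06). DERL1 was not called (0.03, 95% interval -0.06 to 0.13). Of the 9 tested ERAD genes, 5 were lower and 2 higher, with a median of -0.16. Of all tested genes, 30.7% were lower and 29.4% higher.

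Of the 3 sensors, ERN1 and EIF2AK3 fell and ATF6 was not called; differences between the sensors were not tested. ERN1 was at 23.7, 22.5 and 23.4 CPM in UBE2S-KO and 31.4, 34.1 and 31.1 CPM in WT. All UBE2S-KO libraries were clearly below all WT libraries (log2 fold change -0.47, SE 0.05, edgeR adjusted p = 9e-06). EIF2AK3 was at 48.8, 50.2 and 48.0 CPM in UBE2S-KO and 57.3, 58.0 and 59.1 CPM in WT. It fell by a smaller amount, again without overlap (-0.25, SE 0.04, edgeR adjusted p = 0.00012). ATF6 was at 53.2, 50.3 and 51.8 CPM in UBE2S-KO and 51.3, 48.8 and 47.8 CPM in WT, groups that overlapped (0.07, SE 0.04, edgeR adjusted p = 0.18). Its relative ATF6B, a weaker activator, was lower (-0.21, SE 0.04).

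XBP1, the transcription factor whose mRNA ERN1 splices, was at 388.3, 397.2 and 388.3 CPM in UBE2S-KO and 489.1, 474.9 and 482.0 CPM in WT. It was lower in every UBE2S-KO library (-0.30, SE 0.03, edgeR adjusted p = 1e-06). These are counts per gene, and they do not tell the spliced from the unspliced form. CREB3L2, an ER-tethered transcription factor of secretory cells, was not called (0.07, SE 0.03, edgeR adjusted p = 0.07). WFS1 (wolframin), an ER membrane protein that acts in calcium balance and restrains ATF6, was the most increased of the 36 genes. It was at 183.1, 185.8 and 181.5 CPM in UBE2S-KO and 144.8, 133.5 and 133.0 CPM in WT, a log2 fold change of 0.42 with an SE of 0.04 (edgeR adjusted p = 6.8e-07). WFS1 (ENSG00000109501) lies on the plus strand of chromosome 4, from 6269849 to 6303265 in GRCh38.

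Several of these genes sit in chromosome stretches whose genes were shifted together in UBE2S-KO. For each gene the median log2 fold change of up to 25 tested genes on either side was taken as the level of its neighbourhood. Near chromosome ends there were fewer, with 38 in all for CANX and 33 for EDEM1. XBP1 (-0.30) differed by -0.02 from its neighbourhood median of -0.28, and ERO1B (-0.45) by -0.08 from its own of -0.37. DNAJB11 (-0.35) differed by -0.10 from a median of -0.25 and was still called lower (F test with the edgeR SE, adjusted p = 0.023). All 3 tested genes of chromosome 22 lay in lowered stretches, with neighbourhood medians of -0.38 for CRELD2, -0.31 for SDF2L1 and -0.28 for XBP1. CRELD2 and SDF2L1 were lower than their neighbours, by -0.67 and -0.29 on the log2 scale. HYOU1, ERN1 and WFS1 lay in stretches near 0 (0.04, 0.03 and 0.05). In stretches that were raised, CALR differed from its neighbours by -0.20 and PDIA4 by -0.42.

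With the neighbourhood median taken off, 23 of the 36 genes were lower and 4 were higher. Over all genes with neighbours, 27.8% were lower and 54.7% were called in either direction. These calls used each gene's edgeR SE and took the neighbourhood median as free of error, so they may be too many. Of the 25 genes lower before, 19 stayed lower, and HSPA5, DNAJC3, DNAJC10, ERO1B, XBP1 and ATF6B lost their call. CALR, CANX, EDEM1 and CREB3L2 were then called lower and ATF6 higher (0.23), beside WFS1 (0.37), SEL1L (0.24) and DERL2 (0.16). The median over the 36 genes was -0.17. Whether the neighbourhoods differ in gene copy number between the groups was not tested.

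**Figure D3:**
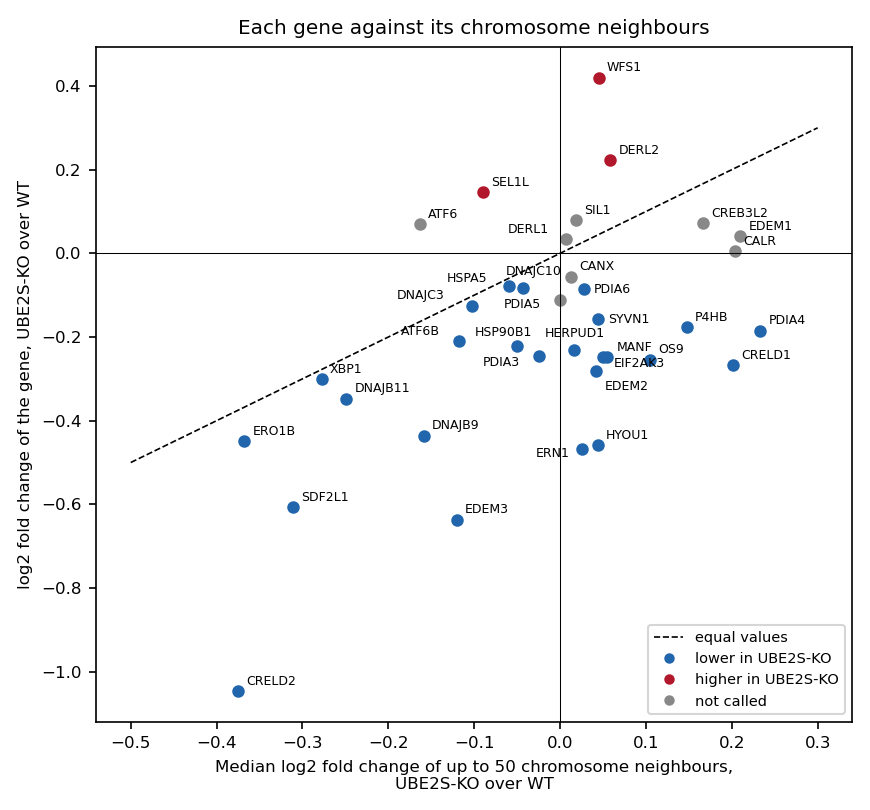
Log2 fold change of each of the 36 genes (y axis) against the median log2 fold change of up to 50 tested chromosome neighbours (x axis), both UBE2S-KO over WT; the dashed line marks equal values. XBP1 and DNAJC3 lie close to the line, while CRELD2, EDEM3, HYOU1 and ERN1 lie far below it and WFS1 above it.

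Genes of the same pathway outside the group were counted from 7 further lists, to be read beside the 30.7% of all tested genes that were lower and the 29.4% that were higher. The PERK arm had 5 of 10 genes lower and 3 higher (median -0.14). ATF4 itself was lower (-0.21, SE 0.03), among neighbours with a median of -0.30, and DDIT3 (CHOP) was not called (-0.04, SE 0.07). The pseudokinase TRIB3 (0.42, SE 0.03), the transcription factor ATF3 (0.37, SE 0.06) and PPP1R15A (GADD34; 0.37, SE 0.07), which reverses the translation block of EIF2AK3, rose. CHAC1, a glutathione-degrading enzyme (-0.97, SE 0.08), SESN2, a stress-induced regulator of growth signalling (-0.75, SE 0.05), and PPP1R15B, the constitutive counterpart of PPP1R15A (-0.34, SE 0.04), fell.

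Other folding enzymes had 11 of 20 genes lower and 2 higher (median -0.12). The disulfide oxidase QSOX1 (-0.73, SE 0.04), the J-domain gene DNAJC1 (-0.79, SE 0.07) and the prolyl isomerase FKBP14 (-0.53, SE 0.06) fell most. PRKCSH, a glucosidase subunit, rose (0.27, SE 0.04) among neighbours with a median of 0.35. TMX4 also rose (0.20, SE 0.04), among neighbours with a median of 0.07. Of 20 other ERAD factors, 9 were lower and 7 were higher (median 0.03). The ligase gene RNF139 (0.46, SE 0.07), HERPUD2 (0.25, SE 0.06) and UBXN4 (0.21, SE 0.03) rose, and the signal peptide peptidase HM13 (-0.35, SE 0.04), FAM8A1 (-0.31, SE 0.04) and the VCP cofactor UFD1 (-0.28, SE 0.03) fell. UFD1 had neighbours with a median of -0.31.

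Of 17 genes of the translocon and signal peptide processing, 5 were lower and 4 higher (median -0.04), including SEC63, which recruits HSPA5 to the channel (0.35, SE 0.03), SPCS3 (0.23, SE 0.06), SEC11A (0.14, SE 0.03), SEC11C (-0.34, SE 0.06), SRPRB (-0.18, SE 0.04) and SEC61B (-0.16, SE 0.04). The oligosaccharyltransferase, which adds glycans to nascent proteins, had 6 of 11 tested genes lower and 1 higher (median -0.07): DAD1 (-0.47, SE 0.04), OST4 (-0.33, SE 0.07) and DDOST (-0.28, SE 0.03) fell and KRTCAP2 rose (0.30, SE 0.07). ER export and retrieval had 11 of 20 lower and 3 higher (median -0.14). KDELR3, a receptor that returns escaped ER proteins, fell most (-0.72, SE 0.05), with the cargo receptors SURF4 (-0.29, SE 0.03) and LMAN1 (-0.28, SE 0.03). SAR1A (0.51, SE 0.04) and SEC24C (0.26, SE 0.03), of the COPII coat, rose within stretches whose medians were 0.59 and 0.47, and MCFD2 rose too (0.17, SE 0.03). ER-phagy receptors had 1 of 8 lower and 2 higher (median 0.05), with RETREG1 (0.57, SE 0.14) and TEX264 (0.30, SE 0.06) higher and CCPG1 (-0.22, SE 0.04) lower. Among the genes named from the further lists, PRKCSH, UFD1, SAR1A, SEC11A, SPCS3, DDOST, KRTCAP2, HERPUD2 and CCPG1 were no longer called with the neighbourhood median taken off. SEC24C (-0.20) and DDIT3 (-0.20) were then called lower and ATF4 higher (0.09).

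**Figure D4:**
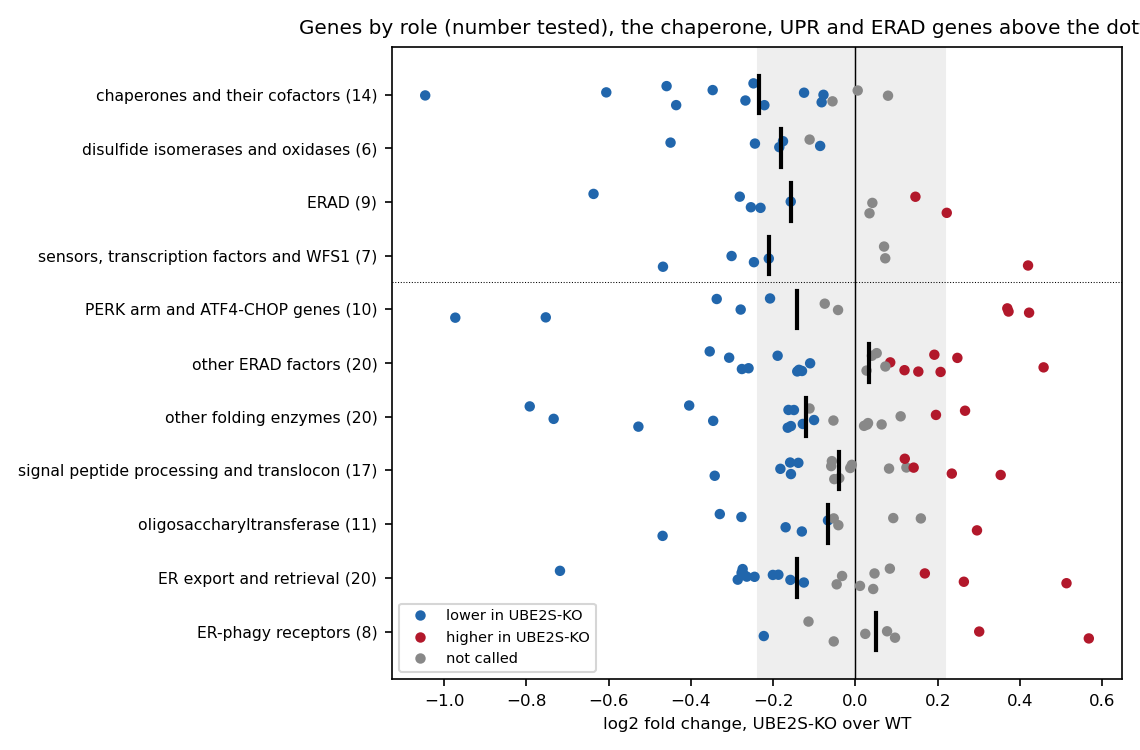
Log2 fold change, UBE2S-KO over WT, of each tested gene by role; black bars are list medians, the vertical line is the median and the grey band the middle 50% of all 13265 tested genes (-0.24 to 0.22). The 4 role groups of the chaperone, UPR and ERAD genes have medians from -0.23 to -0.16, and the other lists from -0.14 to 0.05.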

How the data were processed

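Per the labels' protocols, poly(A) RNA of Huh7 cells was sequenced on an Illumina instrument. The deposited table holds estimated counts, not normalized, of each gene in 3 UBE2S-KO and 3 WT libraries. The tools named per the submitters' processing notes are HISAT2, DESeq2, StringTie 1.3.1 and Bowtie2 2.2.8, with no order or role. Genome build, annotation, counting program and strand setting: not given in the sources used here. In 11 of the 37 genes some estimates were not whole numbers, as when reads are shared between similar genes.

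Counts were rounded, filtered with filterByExpr (minimum count 10) and scaled by TMM, and UBE2S-KO was compared with WT by edgeR 4.0.16 (R 4.3.3) quasi-likelihood tests with Benjamini-Hochberg adjustment over all genes. SEs were derived from the F statistics. CPM use TMM-scaled totals, and limits for 0 counts use plain totals. Positions and exon lengths are from GENCODE release 29 (20171 of 20289 identifiers matched). The genes, lists and tests were chosen with earlier results of these data known. Genes given with every library are those called with an absolute log2 fold change of at least 0.3, those called higher, and HSPA5, the sensors and XBP1; values of overlapping genes, and the library values of PDIA6 and SYVN1, were added after the data were seen. In the further lists, up to 3 called genes per direction are named, with ATF4 and DDIT3 added after the data were seen. Alternatives were other scalings and filters, DESeq2 1.42.0, limma-voom (limma 3.58.1), a replicate block, leaving out each library, a stricter threshold, unrounded values, and the neighbourhood median taken off. The tests were tried on simulated counts.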

Additional observations from a re-analysis of the deposited data

How the results depend on the processing

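Of the 25 genes called lower, 17 kept direction and call under all 17 alternatives, as did the 3 called higher; the counts of lower calls ranged from 20 to 25. SYVN1, PDIA6, HSPA5, DNAJC10 and DNAJC3 were the calls nearest the threshold and lost it in 6 to 12 alternatives each. The median log2 fold change ranged from -0.21 to -0.17, and -0.17 was its value with the neighbourhood median taken off. Leaving out 1 library gave 20 to 25 genes lower, 3 to 5 higher, 7142 to 8457 calls over all genes, and a UBE2S log2 fold change of -2.32 to -2.26; the 5 higher calls were those without WT replicate 1. With the replicate block, 23 genes were lower and 3 higher. Same-numbered libraries did not deviate together over all genes (correlations of -0.04 to 0.02), which gave no sign of pairing by number. Whether same-numbered libraries shared a batch was not tested. The sign turned for genes that were not called: CALR without UBE2S-KO replicate 3 (-0.0045), without WT replicate 3 (-0.011) and with neighbours taken off (-0.20), EDEM1 without WT replicate 1 (-0.024) and with neighbours taken off (-0.17), and CREB3L2 with neighbours taken off (-0.094). With 1 library left out, CALR ranged from -0.011 to 0.024 and EDEM1 from -0.024 to 0.084. The cause was not tested. The median log2 fold change of all genes lay between -0.00057 and 0.013 under the scalings tried. With 3 libraries a group, differences of a few percent, such as that of HSPA5, are at the limit of what was detectable.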
